A study of Mus musculus with 12 samples.

Results

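The Ly6 surface proteins of lymphocytes and the small cysteine-rich protein Plac8 were followed through tumour-infiltrating NK cells and CD8 T cells with and without active TYK2. The group holds 5 genes, Ly6a, Ly6c1, Ly6c2, Ly6e and Plac8, of the 54232 gene identifiers in the count table. The Ly6 genes were taken as family members expressed by lymphocytes, and Ly6c2 and Plac8 were chosen by their lower counts in mutant than in WT CD8 T cells. The CD8 comparisons with WT were therefore used in the choice, and the values of the 5 genes there are given as a description without a test. All 5 genes passed the filter on low counts, a mean normalised count of at least 10. Ly6c1 passed narrowly, with a mean of 25.3, and lay above the floor of 3 counts in 9 of 12 libraries.

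MC38 cells, a colon adenocarcinoma line of the mouse, were injected under the skin of both flanks, and tumours were taken after 8 to 10 days from mice that were 6 to 12 weeks old. The mice were C57BL/6N wild type (WT), carried a germline Tyk2 knockout (Tyk2-/-, KO) or carried a germline Tyk2 allele for a protein without kinase activity (KE), so that every cell of the mutant hosts, not only the sorted lymphocytes, had the mutation, while the tumour cells were the same line in all hosts. For each library, 300 cells from digested tumours were sorted as NK cells (CD45+, CD3ε-, NK1.1+) or as CD8 T cells (CD45+, CD3ε+, CD8a+), and none of the 6 groups received a further treatment. Each group had 2 libraries, and nothing states that these came from separate animals, so the p-values measure only the spread between these libraries. CPM below are counts per 1000000 reads after TMM scaling. DEG are genes that changed by 1 or more on the log2 scale, up or down, with a false discovery rate (FDR) below 0.05 in edgeR's quasi-likelihood test over 13279 genes.

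Ly6 proteins are small, disulfide-rich proteins that are held in the outer membrane leaflet by a glycosylphosphatidylinositol (GPI) anchor. Ly6C, the product of Ly6c1 and Ly6c2, marks effector and memory CD8 T cells and inflammatory monocytes, and Sca-1, the product of Ly6a, marks stem cells and activated lymphocytes. Ly6e is widely expressed and modulates the entry of several viruses. Plac8 is not a member of the family, lies inside the cell and has been linked to immune cell function. Ly6a, Ly6c, Ly6e and Plac8 are known to respond to interferon, whose type I receptor signals through TYK2.

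The total counts lay between 10378761 and 14732882 per library, and log2 CPM of the libraries of one group correlated across genes, which are not independent replicates, with Pearson's r between 0.750 and 0.795. Tyk2 did not separate the genotypes, with 56.3 to 104.6 CPM in the KO libraries and 48.3 to 86.1 CPM in the WT libraries. The counts cover the whole gene and not a deleted part alone, so they do not check the genotype, which rests on the labels. Cd8a was at 2825 to 4086 CPM in the CD8 libraries and at no more than 4.52 CPM in the NK libraries, and Ncr1, an activating NK cell receptor, was at 843 to 2298 CPM and 1.03 to 1.99 CPM, respectively. Klrb1c, the gene of the sort marker NK1.1, was at 1066 to 2247 CPM in the NK libraries and 1.41 to 5.05 CPM in the CD8 libraries. Cd3e was at 581 to 1452 CPM in the CD8 libraries and 7.17 to 51.7 CPM in the NK libraries. The sort labels thus matched these markers, which says nothing of RNA from other cells. Transcripts of monocytes and macrophages were unevenly spread over the NK libraries. The list of 20 markers is summed without Ccr2, a chemokine receptor that NK cells also express, which was set apart after its values were seen. The other 19 markers summed to 16776 and 14783 CPM in NK WT, 7348 and 45.8 CPM in NK KO, and 73.0 and 435 CPM in NK KE, against 110.0 to 727 CPM in the CD8 libraries. Both NK WT libraries and NK KO 1 thus lay above all CD8 libraries, and the other 3 NK libraries did not. CD8 T cell markers summed to 177 to 207 CPM in NK WT, 208 to 528 CPM in NK KO and 352 to 413 CPM in NK KE. Neutrophil, B cell, endothelial and tumour epithelial markers summed to at most 27.5, 32.5, 264 and 97.3 CPM in any NK library.

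The 4 Ly6 genes lie in one stretch of 157 kb on chromosome 15 (GRCm38). Ly6e (ENSMUSG00000022587, 74955051 to 74959905) is on the plus strand, and Ly6a (ENSMUSG00000075602, 74994877 to 74998031), Ly6c1 (ENSMUSG00000079018, 75044018 to 75048830) and Ly6c2 (ENSMUSG00000022584, 75108158 to 75111970) follow on the minus strand. The annotation places 11 genes in this stretch, 5 of them protein coding. The fifth of these is Ly6i. Plac8 (ENSMUSG00000029322, 100553725 to 100572245) is on the minus strand of chromosome 5. No exon of the 5 genes overlaps an exon of another gene on either strand.

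Ly6c1 and Ly6c2 are near-identical copies, which bears on their own counts below. Their coding sequences have 393 bases each and differ at 9 of them (97.7% identity). The first 150 bases from the start codon are shown because 6 of the 9 differences, printed in capitals, fall in this stretch. The longest run without a difference has 188 bases.
Ly6c1: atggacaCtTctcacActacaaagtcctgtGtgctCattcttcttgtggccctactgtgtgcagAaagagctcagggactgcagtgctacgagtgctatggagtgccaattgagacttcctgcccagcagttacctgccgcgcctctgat
Ly6c2: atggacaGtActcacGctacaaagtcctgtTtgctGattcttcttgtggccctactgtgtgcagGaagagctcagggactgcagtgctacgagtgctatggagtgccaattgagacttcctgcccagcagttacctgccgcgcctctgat
Ly6a was 81.8% identical to Ly6c1 and 81.6% to Ly6c2 in its coding sequence, whereas Ly6e reached at most 52.2% with any of them.

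Reads of 50 bases were counted only where they aligned to one place, so a read from a stretch that is identical in several genes is left out for all of them. In the longest coding transcript of each gene, 292 of 795 windows of 50 bases (36.7%) of Ly6c1 were also present in a transcript of another gene, namely Ly6c2 or Ly6a. For Ly6c2, 255 of 773 windows (33.0%) were shared, and the partners were Ly6c1, Ly6a and I830127L07Rik. Ly6a shared 91 of 906 windows (10.0%), and Ly6e and Plac8 shared 0. The levels of Ly6c1, Ly6c2 and, less so, Ly6a are uncertain to that extent, above all per length.

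**Figure D1:**
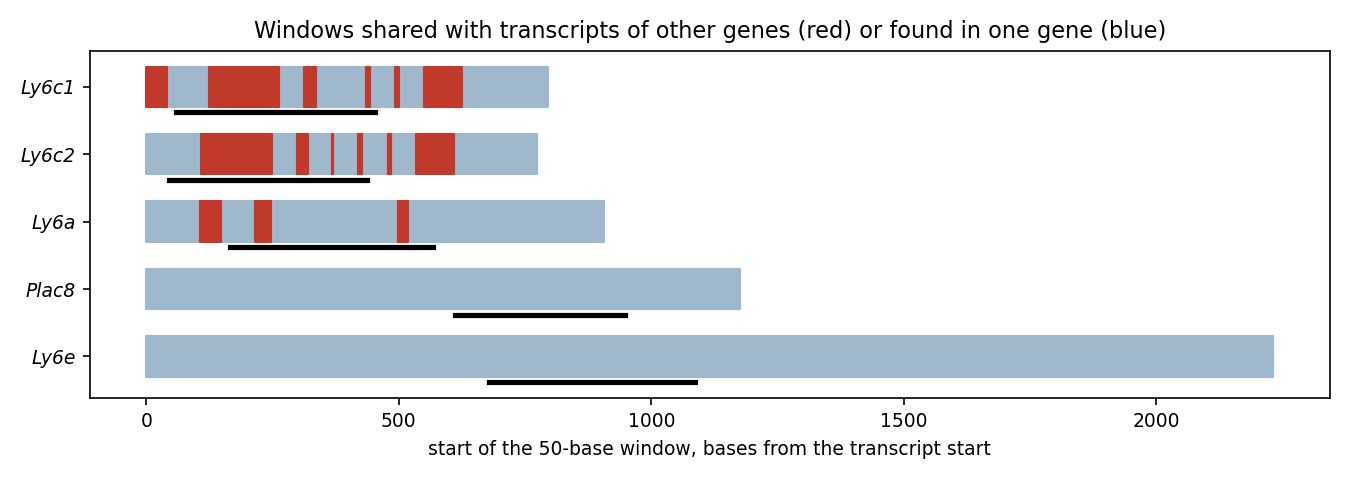
Windows of 50 bases along the longest coding transcript of each gene, plotted by the distance of their start from the transcript start in bases. Red windows occur in a transcript of another gene, blue windows in one gene only, and the black line marks the coding sequence. Ly6c1 and Ly6c2 have red stretches inside and behind the coding sequence, and Plac8 and Ly6e have none.

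Ly6c2 reached the highest CPM of the 5 genes, in CD8 WT. In CD8 T cells it was at 4740.5 and 2885 CPM in WT, 600.3 and 890.3 CPM in KO, and 1213 and 1588 CPM in KE. In NK cells it was at 328 and 507 CPM in WT, 211 and 202 CPM in KO, and 262 and 296 CPM in KE. Both libraries of a group stayed apart from those of every other group, so that the levels fell in the order CD8 WT, CD8 KE, CD8 KO, NK WT, NK KE and NK KO without overlap. By mean CPM, Ly6c2 was the gene of rank 16 among all genes in CD8 WT and of rank 819 in NK KO.

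Plac8 was at 1151 and 1167 CPM in CD8 WT, 534 and 387 CPM in CD8 KO, and 147 and 263 CPM in CD8 KE. In NK cells it was at 389 and 433 CPM in WT, 63.3 and 113 CPM in KO, and 69.9 and 83.7 CPM in KE. CD8 KO and NK WT overlapped, as did NK KO and NK KE, while CD8 WT lay above all other groups. KE was the lowest CD8 group for Plac8 and KO the lowest for Ly6c2.

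Ly6a, which encodes Sca-1, was at 3529 and 2524 CPM in CD8 WT, 909 and 623 CPM in CD8 KO, and 288 and 536 CPM in CD8 KE. In NK WT it was at 449 and 498 CPM, in NK KO at 134 and 2.59 CPM, and in NK KE at 18.1 and 55.7 CPM. The NK KO libraries lay far apart and enclosed both NK KE libraries. NK WT overlapped CD8 KE, while CD8 WT lay above every other group.

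Ly6e was the most even of the genes. It was at 1665 and 1758 CPM in NK WT and at 1666 and 1767 CPM in CD8 WT. NK KO had 1366 and 1039 CPM, NK KE 1291 and 1377 CPM, CD8 KO 881 and 1119 CPM, and CD8 KE 1060 and 1237 CPM. The 2 WT groups overlapped each other and lay above all 8 mutant libraries, and the mutant groups overlapped their neighbours in the order.

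Ly6c1 was hardly detected, in spite of its likeness to Ly6c2. In CD8 T cells, WT gave 40 and 39 counts, KE 10 and 12, and KO 0 and 6. In NK cells, WT gave 2 and 38 counts, KE 29 and 1, and KO 122 and 5. In CD8 WT, Ly6c2 had 63952 and 39768 counts in the same libraries. The replicates of each NK group lay so far apart that no order of the NK groups could be read for Ly6c1.

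**Figure D2:**
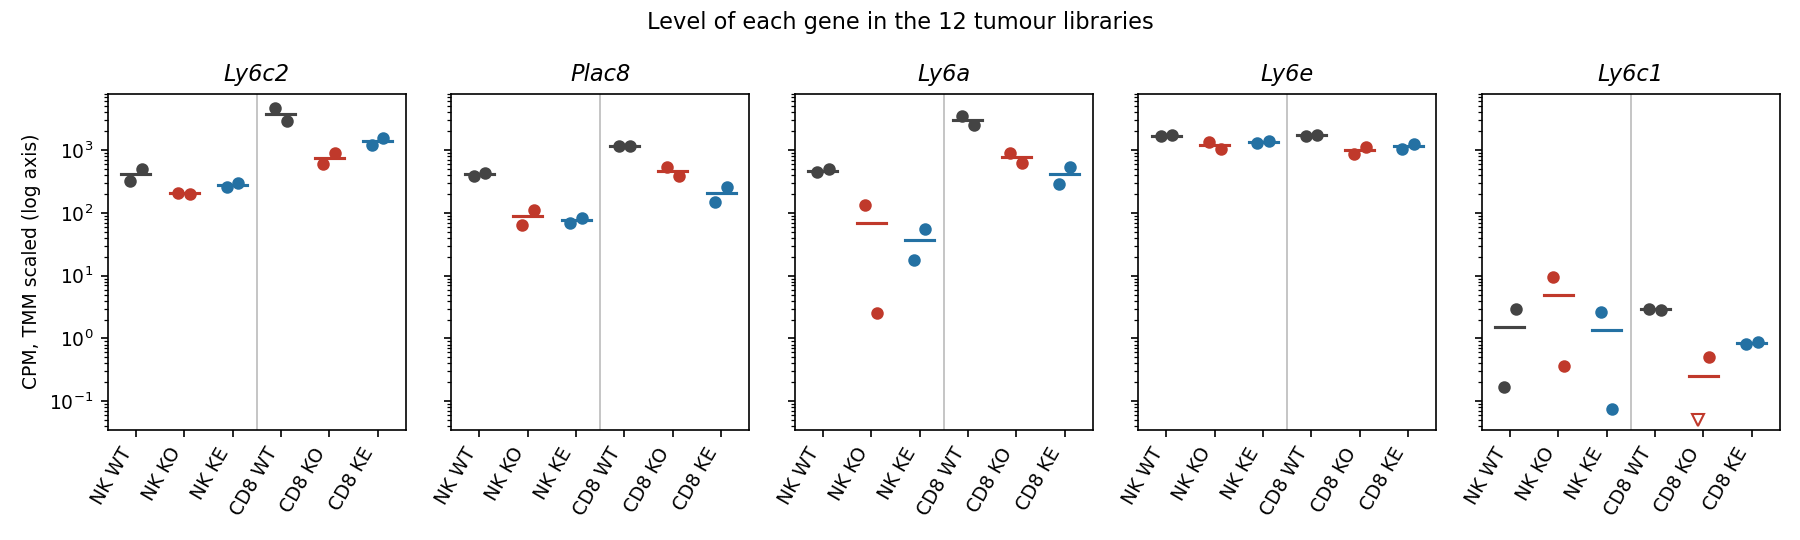
CPM of each gene (log axis) in the 12 libraries, with one point per library and a line at the mean of the 2 libraries of a group. The open triangle at the bottom stands for the CD8 KO library with 0 counts of Ly6c1. Ly6c2, Plac8, Ly6a and Ly6e lay lower in all mutant libraries than in both WT libraries of the same cell type.

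Per kilobase of exon, Ly6c2 had the highest mean of the 5 genes in CD8 T cells, with 4393 ± 1511 CPM per kb (SD, n = 2) in WT, 859 ± 236 in KO and 1614 ± 306 in KE. Ly6a was next in WT with 3014 ± 707 CPM per kb and in KO with 763 ± 201, and its libraries overlapped those of Ly6c2 in both groups. In CD8 WT they were followed by Plac8 with 825 ± 7.99 and Ly6e with 698 ± 28.8. In NK cells, Ly6e was the highest in every genotype, with 696 ± 26.6 CPM per kb in WT, and Ly6c2 came next with 481 ± 145. Ly6c2 and Ly6a in NK WT, at 481 ± 145 and 472 ± 34.1 CPM per kb, did not differ beyond their spread.

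The rule that chose the genes used no value from NK cells, although it was written with earlier results of these data known, and the NK libraries were compared between each mutant and WT. Plac8 was at a lower level in NK KO, with a log2 fold change of -2.22 (SE 0.35, FDR 0.197, edgeR), and in NK KE, with -2.42 (SE 0.35, FDR 0.140), although neither passed the threshold. Both comparisons share the NK WT libraries. With both mutants set against WT in one contrast, Plac8 had a log2 fold change of -2.32 (SE 0.28, FDR 0.0294) and was 1 of the 4 DEG of that contrast, which makes it 4.99-fold lower in the mutants. It was the only one of the 5 genes called, against a background of 0.0301% of all genes tested. This call was lost when any 1 of 4 libraries was left out, namely NK WT 1 (FDR 0.114), NK WT 2 (FDR 0.0782), NK KE 1 (FDR 0.179) or NK KE 2 (FDR 0.0975), and when the NK libraries were fitted alone (FDR 0.0929), whereas the log2 fold change stayed between -2.57 and -2.14 over the 14 alternatives without a covariate.

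For the Ly6 genes in NK cells the differences from WT were smaller or more variable, and edgeR called none of them with all 12 libraries and the filter on low counts. Ly6c2 had log2 fold changes of -1.02 (SE 0.30, FDR 0.614) in KO and -0.58 (SE 0.29, FDR 0.824) in KE, and Ly6e of -0.51 (SE 0.18, FDR 0.757) and -0.36 (SE 0.18, FDR 0.824). For Ly6a the values were -2.79 (SE 1.19, FDR 0.766) and -3.68 (SE 1.24, FDR 0.680). Without NK KO 1, Ly6a was called in KO (-7.51, FDR 0.0384), but NK KO then held 1 library with 35 counts, whose spread is assumed to be that of the other groups, and over all alternatives its FDR ranged from 2.88e-18, without a filter on low counts, to 1. Without that filter Ly6a was called in KE (FDR 9.48e-31) and Ly6c2 in KO (FDR 0.00649) as well. Ly6c1 gave 1.67 (SE 2.80) and -0.17 (SE 2.73), which its low counts do not separate from 0.

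In edgeR, 0 of the 5 genes were DEG in either single mutant, where 0% of all genes were called. At an unadjusted p under 0.05, 4 of 5 were lower in KO, against 3.98% of all genes, 2 of 5 in KE, against 3.95%, and 4 of 5 in both mutants against WT, against 6.85%. DESeq2 called Plac8 and Ly6c2 in KO (FDR 1.18e-06 and 0.0311), where it called 2.85% of all genes, Plac8 in KE (FDR 5.64e-08), against 2.91%, and Plac8 in both mutants against WT (FDR 5.24e-10), against 3.44%. All 4 mutant NK libraries lay below both WT libraries for 4 of the 5 genes, Ly6a, Ly6c2, Ly6e and Plac8, a pattern that 10.8% of all genes tested had. In such bulk libraries, fewer cells that express a gene and less RNA per cell cannot be told apart.

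The macrophage transcripts moved with these NK differences. Of the 18 markers tested, 16 had all mutant NK libraries below both WT libraries, against 10.8% of all genes. At an unadjusted p under 0.05, 16 were lower in both mutants against WT, against 6.85%, with 0 DEG by edgeR, against 0.0301%, and 7 by DESeq2, against 3.44%. Apoe, a lipoprotein abundant in macrophages, was at 7119 and 5443 CPM in NK WT, 1827 and 2.00 CPM in NK KO, and 2.12 and 150 CPM in NK KE. Csf1r, the receptor of the macrophage growth factor, was at 292 and 302 CPM in NK WT and at 0.156 to 27.6 CPM in the mutant NK libraries. F13a1, which did not pass the filter, had 12 and 15 counts in NK WT and 0 in all mutant NK libraries. Ccr2 and Lyz2 did not have all mutant NK libraries below both WT libraries. Ccr2 was at 1134 and 1279 CPM in NK WT against 729 to 1540 CPM in the mutants. Lyz2 was at 2505 and 2098 CPM in NK WT, 3376 and 19.4 CPM in NK KO, and 14.2 and 94.3 CPM in NK KE.

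In the mutant NK libraries, Ly6a stood in the same order as the macrophage transcripts, summed over the 19 markers without Ccr2. NK KO 2, with 45.8 CPM of markers, had 2.59 CPM of Ly6a, NK KE 1, with 73.0 CPM, had 18.1 CPM, NK KE 2, with 435 CPM, had 55.7 CPM, and NK KO 1, with 7348 CPM, had 134 CPM. The NK WT libraries did not keep this order, with 449 CPM of Ly6a at 16776 CPM of markers and 498 CPM at 14783 CPM. For Plac8 the KO libraries stood the other way round, with 63.3 CPM in NK KO 1 and 113 CPM in NK KO 2. Ly6c2 was nearly the same in both, at 211 and 202 CPM. With the mean level of all 20 macrophage markers (log2 CPM) as a covariate, chosen after seeing the data, the log2 fold change of both mutants against NK WT was 1.79 for Ly6a (FDR 1), so its sign turned, and -3.13 for Plac8 (FDR 0.845). How much of the NK differences came from macrophage RNA was not tested. Of 9 T cell markers, 2, Cd3e and Cd3d, were higher in both NK mutants against WT at an unadjusted p under 0.05 (2.18% of all genes were). By edgeR 0 were lower and 0 were DEG. The markers did not move together, and Cd8a had a log2 fold change of 0.00081. Only Cd3e lay higher in all mutant NK libraries than in both WT libraries. Cd3e, a chain of the T cell receptor complex, was at 8.96 and 7.17 CPM in NK WT, 9.93 and 51.7 CPM in NK KO, and 30.8 and 31.0 CPM in NK KE, whereas Cd8a was at no more than 4.52 CPM in any NK library. Of 9 NK cell markers, Klrb1c, Klre1 and Ncr1 lay higher in all mutant NK libraries than in both WT libraries, as 7.08% of all genes did, and 1, Gzma, lower. Only Ncr1 had an unadjusted p under 0.05, with 843 and 934 CPM in NK WT and up to 2298 CPM in the mutants (both mutants against WT, log2 fold change 1.06, FDR 0.139, edgeR). The part of T cell RNA and of NK cell content in the NK values was not tested.

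**Figure D3:**
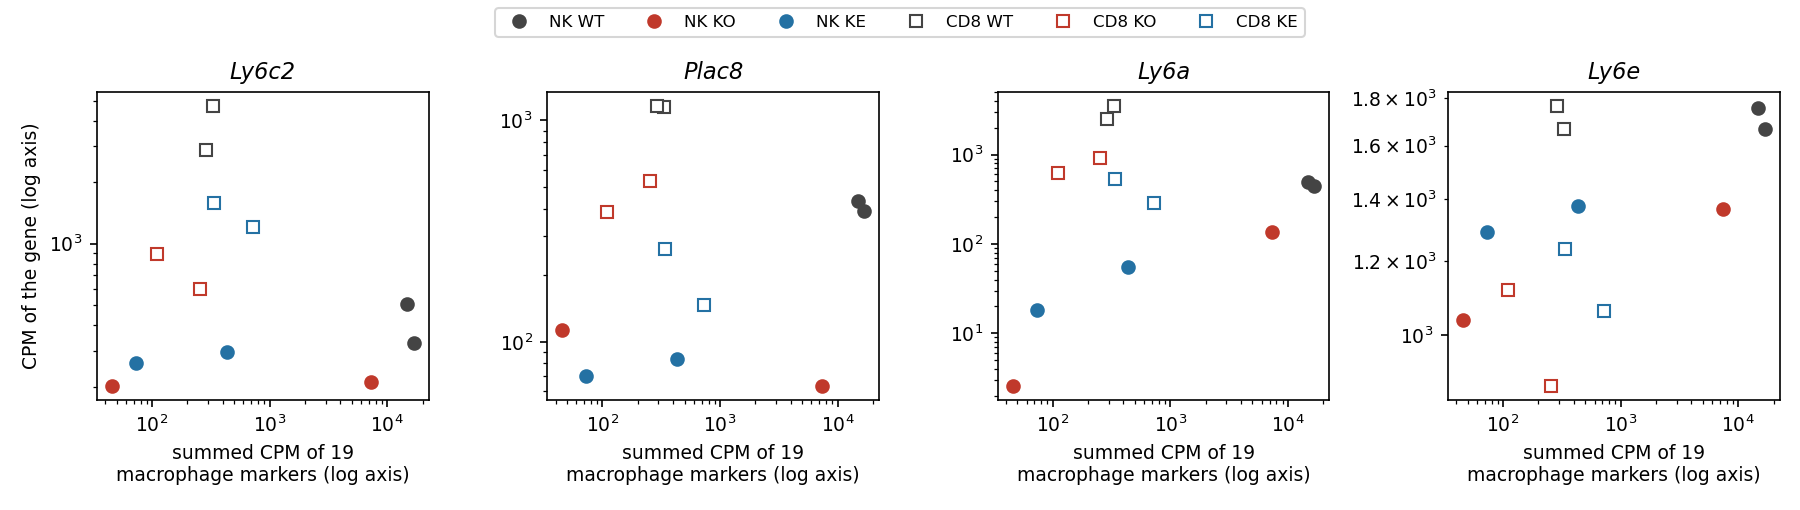
CPM of Ly6c2, Plac8, Ly6a and Ly6e (log axis) against the summed CPM of 19 monocyte and macrophage markers, without Ccr2 (log axis), in each library. Filled circles are NK libraries, open squares CD8 libraries, and colours give the genotype. NK KO 1, the filled red point at 7348 CPM of markers, lies at 134 CPM for Ly6a and at 63.3 CPM for Plac8.

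In CD8 T cells the genes were lower in both mutants, which for Ly6c2 and Plac8 alone follows from their choice. The fitted log2 fold changes of Ly6c2 were -2.35 in KO and -1.44 in KE, and those of Plac8 were -1.33 and -2.50. Ly6a had -1.98 and -2.88, Ly6e -0.78 and -0.58, and Ly6c1 -3.49 and -1.75. Both comparisons use the same CD8 WT libraries. All 4 mutant CD8 libraries lay below both WT libraries for Ly6c2 and Plac8, whose lower values were the ground of their choice. The same held for Ly6a, Ly6e and Ly6c1, which were taken as family members. Of all genes tested, 7.49% had this pattern, and it is given here as a description without a test. DEG made up 0.0527% of all genes in KO and 0.0828% in KE. The 19 macrophage markers without Ccr2 summed to 332 and 290 CPM in CD8 WT, 255 and 110.0 CPM in CD8 KO, and 727 and 339 CPM in CD8 KE, so that both KE libraries lay above and both KO libraries below WT. Their part in the CD8 values was not tested. CD8 WT 1 also stood apart by 6218 CPM of Gzma, a cytotoxic granule protease, against 248 CPM in CD8 WT 2.

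The 2 mutants were also compared with each other directly. In CD8 T cells the mutant libraries entered the choice of Ly6c2 and Plac8, whose values there are a description without a test. KO lay below KE for Ly6c2, with a log2 fold change of -0.91 (SE 0.30), and above KE for Plac8, with 1.17 (SE 0.34), and the libraries of KO and KE did not overlap for either gene. Of the other 3 genes, Ly6a and Ly6c1 did not overlap either, as 29% of all genes tested. In edgeR, 0 of these 3 were DEG, where 0% of all genes were called, and DESeq2 called 0 of them, against 1.18%. At an unadjusted p under 0.05, 0 of them passed, against 1.68% of all genes lower and 1.94% higher. In NK cells, KO and KE differed by -0.43 (SE 0.29) for Ly6c2, 0.20 (SE 0.34) for Plac8, 0.89 (SE 1.13) for Ly6a and -0.15 (SE 0.18) for Ly6e, all with an FDR of 1 in edgeR. Here 0 of the 5 genes were DEG by edgeR or DESeq2, against 0% and 1.54% of all genes, and 0 had an unadjusted p under 0.05, against 2.04% lower and 1.75% higher. For Plac8 in NK cells, the 95% interval of the difference, from its SE and the degrees of freedom of the test, reached from -0.54 to 0.94.

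The cell types were compared within each genotype. Mitochondrial transcripts moved with the cell type, with 2.40% to 4.64% of the counts in the NK libraries and 4.50% to 7.68% in the CD8 libraries, and each NK library lay below both CD8 libraries of its genotype. Macrophage transcripts also differed between the cell types, unevenly over the genotypes. The 19 markers without Ccr2 summed to 14783 to 16776 CPM in NK WT against 290 to 332 CPM in CD8 WT. In KO they summed to 45.8 to 7348 CPM in NK against 110.0 to 255 CPM in CD8 T cells. In KE the sums were 73.0 to 435 CPM and 339 to 727 CPM. The part of mitochondrial and macrophage transcripts in the values below was not tested. The CD8 libraries of all genotypes entered the choice of Ly6c2 and Plac8, so the values of these genes are a description without a test. Ly6c2 was 9.13-fold lower in NK than in CD8 T cells in WT (log2 fold change -3.19, SE 0.32), 3.61-fold lower in KO (-1.85, SE 0.30) and 5.02-fold lower in KE (-2.33, SE 0.31). Plac8 was 2.82-fold lower in WT (-1.50, SE 0.34), 5.22-fold lower in KO (-2.38, SE 0.35) and 2.67-fold lower in KE (-1.42, SE 0.34). For both genes each NK library lay below both CD8 libraries of its genotype.

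Of the other 3 genes, 0 were DEG between the cell types by edgeR, against 0.776% of all genes in WT, 0.904% in KO and 0.7% in KE, and DESeq2 called 0 of them, against 6.23%, 6.1% and 6.09%. At an unadjusted p under 0.05 only Ly6a was lower in NK cells, in each genotype, as were 4.78%, 5.35% and 5.02% of all genes. Ly6a had a log2 fold change of -2.68 (SE 1.18, FDR 0.484) in WT and of -3.48 in both KO (SE 1.23, FDR 0.358) and KE (SE 1.23, FDR 0.358). Ly6e had a log2 fold change of -0.0045 (SE 0.18, FDR 1) in WT, where the 95% interval reached from -0.41 to 0.40, of 0.27 (SE 0.18, FDR 0.640) in KO and of 0.22 (SE 0.18, FDR 0.757) in KE. Its libraries overlapped between the cell types in WT and KO, while in KE both NK libraries lay above both CD8 libraries.

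**Figure D4:**
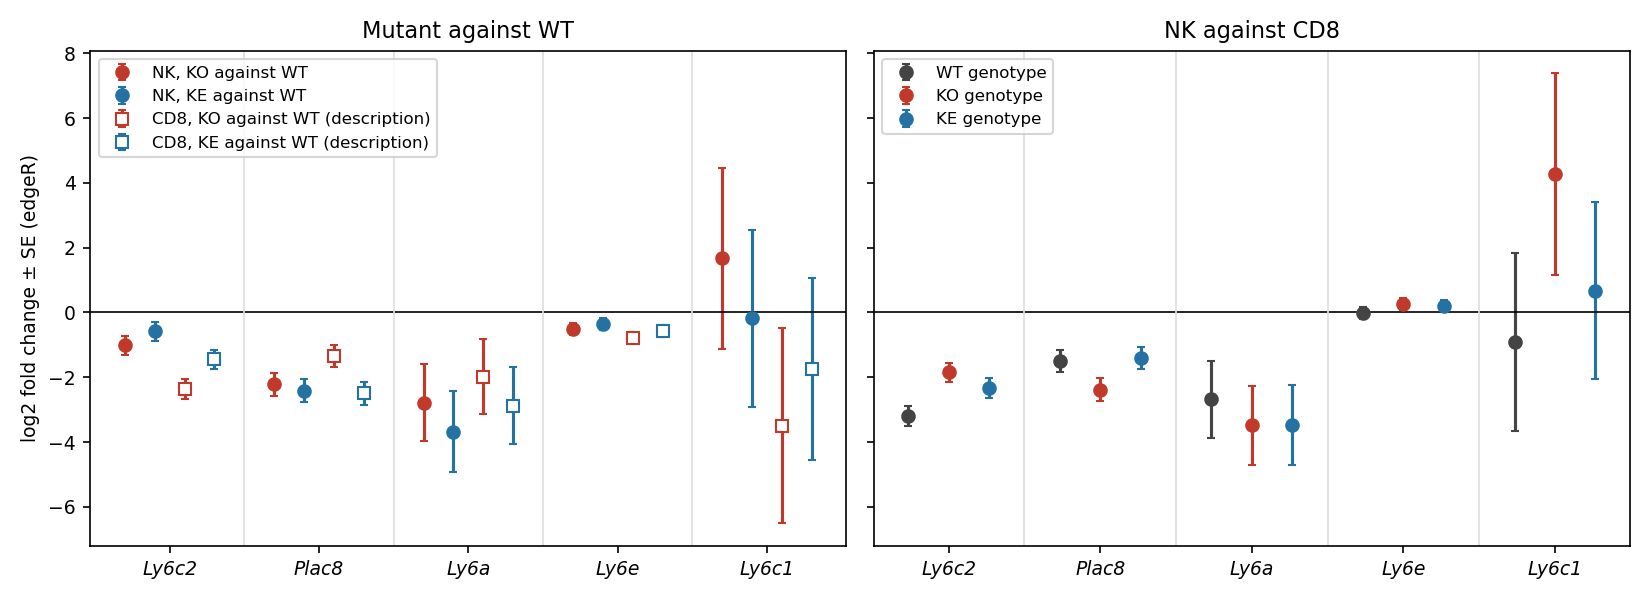
Log2 fold changes of the 5 genes with their SE from edgeR, for mutants against WT (left) and for NK against CD8 T cells in each genotype (right). Filled circles are NK or cell type comparisons, and open squares are the CD8 comparisons that were used to choose the genes; Ly6c2 and Plac8 on the right are also a description. In NK cells Plac8 lies at -2.22 and -2.42, and Ly6e at -0.51 and -0.36.

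Across the 12 libraries, log2 CPM of Ly6c2 and Plac8 had a Pearson's r of 0.776, Ly6a and Plac8 of 0.821, and Ly6a and Ly6c2 of 0.790. Within the 6 CD8 libraries, Ly6a and Plac8 reached 0.979. Within the 6 NK libraries, Ly6a and Ly6e reached 0.968. These libraries share cell type, genotype and sort, so the values are a description. The genes with a pattern most like Ly6c2 were Filip1 (r = 0.944), Ggt1 (0.933), Gramd3 (0.911), Zcchc3 (0.906) and Arpc5 (0.906), an actin nucleation subunit. Ggt1 and Zcchc3 had 0 counts in all 6 NK libraries, so no r within NK cells can be read for them. Filip1 had 2.93 CPM in NK WT 2 and 0 in every other NK library, so its r of 0.829 within NK cells rests on 1 library. Within the 6 NK libraries r with Ly6c2 was 0.350 for Gramd3 and 0.195 for Arpc5. Within the 6 CD8 libraries the r of these genes lay between 0.695 and 0.942. Gramd3 was at 740.3 and 451 CPM in CD8 WT and at 79.4 and 114 CPM in NK KO. The genes most like Plac8 were Tpi1 (r = 0.935), Ifi214 (0.934), Gpi1 (0.932), Pld2 (0.932) and Hmmr (0.926), with r between 0.857 and 0.973 within the NK libraries and between 0.820 and 0.967 within the CD8 libraries. Tpi1 and Gpi1 encode enzymes of glycolysis and Ifi214 an interferon-inducible protein. Ifi214 was at 133 and 141 CPM in CD8 WT, 19.6 and 33.4 CPM in CD8 KO, 19.1 and 19.0 CPM in CD8 KE, 68.7 and 38.5 CPM in NK WT, and 2.30 to 11.5 CPM in the mutant NK libraries. Only 3 of these 10 genes kept their place with Spearman's rho, and 3 without the 2 libraries farthest from the median.

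Other Ly6 family genes were largely silent. Of 32 in the table, 4 passed the filter, and together the 32 summed to 7.00 to 99.9 CPM per library. Ly6g5b was at 61.0 and 19.1 CPM in CD8 WT, 44.8 and 14.4 CPM in CD8 KO, and 81.8 and 70.1 CPM in CD8 KE, with at most 0.276 CPM in any NK library. The CD8 groups overlapped for WT and KO, and every CD8 library lay above every NK library. The gap between NK and CD8 T cells had an FDR of 0.0689 in WT, 0.0722 in KO and 0.0715 in KE by edgeR, and DESeq2 called it in each genotype. Ly6i, the neighbour of Ly6a, had 24.6 CPM in NK KO 1 and at most 0.0830 CPM elsewhere. Plaur, the urokinase receptor, was at 32.1 and 36.8 CPM in NK WT, 17.4 and 2.66 CPM in NK KO, and 6.63 and 0 CPM in NK KE. It thus lay lower in the mutants than in WT, as the macrophage transcripts did. Within NK WT and within NK KE, the libraries stood the other way round from these transcripts. Lypd6b was at 0 in both NK WT libraries, at 0 and 32.4 CPM in NK KO, and at 0 and 17.3 CPM in NK KE, so the replicates lay apart. Of the 4 genes, 0 were DEG in any comparison by edgeR. At an unadjusted p under 0.05, Ly6g5b alone was lower in NK than in CD8 T cells, and 0 genes passed in the other comparisons. DESeq2 called Lypd6b higher in mutants of both cell types. Against WT, DESeq2 called 2.85% of all genes in NK KO, 2.91% in NK KE and 3.44% in both NK mutants. The shares were 1.76% in CD8 KO and 2.47% in CD8 KE. However, Lypd6b had 0 counts in both CD8 WT libraries, 0 and 2 in CD8 KO, and 3 and 230 in CD8 KE. Among the CD8 libraries, 1 thus held nearly all of its counts. Ly6g, a granulocyte marker, stayed at or below 3.19 CPM.

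The genes that build the GPI anchor are needed for Ly6 proteins to reach the surface. Of 28 tested, 0 were DEG in any comparison by edgeR, and DESeq2 called 0 between mutants and WT in either cell type. The median log2 fold change of both NK mutants against WT was 0.17, against -0.05 over all genes. At an unadjusted p under 0.05, 1 was higher and 0 lower in that contrast, against 2.18% and 6.85% of all genes. Pigs, a subunit of the transamidase that attaches the anchor, was at 246 and 160 CPM in NK WT, 157 and 149.7 CPM in NK KO, and 71.3 and 140.3 CPM in NK KE. Pigl, which acts early in anchor synthesis, was at 7.28 and 9.48 CPM in NK WT and at 43.6 and 39.2 CPM in NK KO (FDR 0.766). Gpaa1, another transamidase subunit, ranged from 70.1 to 211 CPM in the NK libraries.

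Interferon signalling genes were examined because TYK2 carries the signal of the type I receptor. Of 17 tested, 0 were DEG in any comparison by edgeR. In both NK mutants against WT, an unadjusted p below 0.05 was found for 3, all lower, and DESeq2 called 3, Ifngr2, Irf7 and Usp18, against 6.85% and 3.44% of all genes, with a list median of -0.21 against -0.05 over all genes. Irf7, an interferon-induced transcription factor, was at 607 and 453 CPM in NK WT, 97.1 and 102 CPM in NK KO, and 126 and 148 CPM in NK KE (both mutants against WT, log2 fold change -2.18, FDR 0.237). Usp18, an inhibitor of the receptor, was at 281 and 277 CPM in NK WT and 7.90 to 69.4 CPM in the mutants (-3.29, FDR 0.361). In CD8 T cells Irf7 was at 307 and 299 CPM in WT and 18.4 to 99.3 CPM in the mutants, and Usp18 at 316 and 241 CPM and 0.146 to 12.7 CPM. Jak1, the partner kinase, was at 1215 and 990.2 CPM in NK WT and 1064 to 1586 CPM in the mutant NK libraries, so that the groups overlapped. Ifngr1, a chain of the interferon gamma receptor, was at 2781 and 3006 CPM in NK WT and 2313 to 3148 CPM in the mutants.

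Genes of memory and trafficking, among which Ly6C is commonly used, did not fall together. Of 28 tested, 0 were DEG between mutant and WT in either cell type by edgeR. In both NK mutants against WT, an unadjusted p below 0.05 was found for 4 lower and 6 higher genes, against 6.85% and 2.18% of all genes, and DESeq2 called Cd69 lower and Itgae higher, against 3.44% called in all. The list median there was 0.20, against -0.05 over all genes. Itgb1, an integrin chain, was at 1263 and 1355 CPM in NK WT and 1686 to 2439.7 CPM in the mutant NK libraries. Between NK and CD8 T cells, 1 of the 28 was a DEG lower and 2 higher in WT, and 2 higher in KO and in KE each, against 0.776%, 0.904% and 0.7% of all genes. Itgb1 was among the higher ones in every genotype (log2 fold change 1.11 in WT, FDR 0.0306), and Cxcr3 was the lower one in WT (-1.42, FDR 0.0107). Cxcr3, a chemokine receptor of tumour-infiltrating lymphocytes, was at 590 and 594 CPM in CD8 WT and 300.2 to 454 CPM in the mutant CD8 libraries, but at 220 and 224 CPM in NK WT and 313 to 379 CPM in the mutant NK libraries.

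The promoters were examined for the motifs that interferon-activated factors bind, because Ly6c and Plac8 are known to respond to interferon. RefSeq promoter windows (GRCm38.p6, 250 bases before to 50 after the start) were at hand for 3 of the 5 genes, Ly6c1, Ly6c2 and Plac8. On either strand, 0 of their 6 windows held GAAANNGAA, the core of the interferon-stimulated response element, which 8.56% of 32851 windows of all genes held. TTCNNNGAA, the motif of STAT dimers, was in 0 of 6 against 8.30%. The 250 bases before the start are shown for 1 window of each gene, with no capitals in Plac8, and with capitals in Ly6c1 (chr15:75048838-75049087, minus strand) and Ly6c2 (chr15:75111972-75112221, minus strand) at the bases that differ between these copies within their alignment. The first bases of the Ly6c1 window and the last of the Ly6c2 window lie outside it, have no partner in the other window and stand in lower case. Over 228 aligned columns the Ly6c windows were 71.9% identical, with 52 substitutions and 12 gap columns, against 97.7% for their coding sequences. Plac8 is from chr5:100572206-100572455, minus strand.
Ly6c1: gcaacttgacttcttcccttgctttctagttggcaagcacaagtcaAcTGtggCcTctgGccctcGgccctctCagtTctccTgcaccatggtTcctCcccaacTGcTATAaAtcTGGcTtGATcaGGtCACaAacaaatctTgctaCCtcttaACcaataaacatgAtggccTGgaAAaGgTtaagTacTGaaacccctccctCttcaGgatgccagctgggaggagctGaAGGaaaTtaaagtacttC
Ly6c2: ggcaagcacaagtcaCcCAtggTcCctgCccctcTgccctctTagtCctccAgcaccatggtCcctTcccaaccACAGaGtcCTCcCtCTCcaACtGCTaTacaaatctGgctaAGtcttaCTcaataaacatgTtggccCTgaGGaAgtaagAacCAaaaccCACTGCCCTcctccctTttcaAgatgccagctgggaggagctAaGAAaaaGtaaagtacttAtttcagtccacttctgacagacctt
Plac8: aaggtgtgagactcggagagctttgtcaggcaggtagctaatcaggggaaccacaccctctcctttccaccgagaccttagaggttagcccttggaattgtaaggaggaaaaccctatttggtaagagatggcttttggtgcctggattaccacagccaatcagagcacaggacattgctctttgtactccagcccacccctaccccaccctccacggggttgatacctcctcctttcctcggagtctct
The absence of a match says only that these letters are not in these windows.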

How the data were processed

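RNA of 300 sorted cells per library was amplified by the authors with the Smart-seq2 method. Single-end reads of 50 bases were trimmed (Trimmomatic) and aligned with STAR to mm10 (GRCm38), and those with one alignment in exons of Ensembl release 93 were counted with summarizeOverlaps. The deposited values are raw read counts per gene, not normalised and not pooled. Reads with several alignments were dropped by the authors, counting is not stated to use strand, and no molecular identifiers were used, so the floor of 3 counts (0.218 to 0.276 CPM) covers counting error only.

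Counts were scaled by TMM and tested with edgeR 4.0.16 in R 4.3.3 (robust quasi-likelihood F-test, two-sided, one mean per group over all 12 libraries), on 13279 genes with a mean normalised count of at least 10. The FDR is the Benjamini-Hochberg value over all genes, and the SE was derived from the fold change and F. The 95% intervals used this SE with the test's degrees of freedom and include the spread between libraries. Correlations used log2 CPM with a prior count of 2. DESeq2 1.42.0, other scalings and filters, a replicate block and omission of each library were alternatives. Scripts were tested on simulated data, where recovery of the set changes was required only at a spread well below that of these data. This checks the code and not the power of the tests here. Sequences came from GENCODE transcripts and RefSeq, and were aligned with Biopython 1.88 in Python 3.11.15.

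The 5 genes and all gene lists (other Ly6 family, GPI anchor, interferon signalling, memory and trafficking, and markers of CD8 T cells, NK cells, monocytes and macrophages, neutrophils, plasmacytoid dendritic cells, B cells, endothelium and tumour epithelium) were chosen with earlier results of these data known. Genes named were the 5 genes, Tyk2 and the sort markers, other Ly6 genes over the filter, the 5 genes most like Ly6c2 and Plac8 each, and per list up to 4 called genes or, with 0, the 2 of lowest p in an NK comparison and the 2 of highest mean CPM. A result that this rule would name in the memory and trafficking list is not reported here. Apoe, Csf1r, F13a1 and Lyz2 among the macrophage markers, Cd3d, Klre1, Gzma and Ly6g were named after their values were seen. NK cell markers summed to 16123 to 19181 CPM in NK libraries and 262 to 6407 CPM in CD8 libraries, CD8 T cell markers to 11729 to 16204 CPM in CD8 libraries, and plasmacytoid dendritic cell markers to 69.7 to 201 CPM in any library, of which Runx2 and Tcf4 are also expressed by lymphocytes.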

Additional observations from a re-analysis of the deposited data

How the results depend on the processing

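The spread between replicates was wide, with a common biological coefficient of variation of 109%, so single calls moved with the method. Over all genes, DEG in both NK mutants against WT numbered 4 with edgeR, 457 with DESeq2 and 374 without a filter on low counts. The corresponding numbers were 0, 379 and 195 for NK KO, 0, 386 and 256 for NK KE, 0, 204 and 96 for NK KO against KE, 0, 157 and 82 for CD8 KO against KE, 7, 234 and 124 for CD8 KO, and 11, 328 and 185 for CD8 KE. NK against CD8 T cells gave 103, 827 and 537 for WT, 120, 810 and 524 for KO, and 93, 809 and 498 for KE. Ly6c1 lay at or under the floor of 3 counts in 3 of 12 libraries, which limits its values.

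Counts between cell types include Ly6c2 and Plac8, whose CD8 libraries entered their choice, so their stability supports nothing. Of the 5 genes, DESeq2 called 2 in NK KO, 1 in NK KE and 2 each between NK and CD8 T cells in WT and KE. Without the filter, 3 were called in NK KO, 2 in NK KE, 2 in both NK mutants against WT, and 3 each between the cell types in WT and KE. With libraries of one cell type only, 0 were called in both NK mutants against WT. When each library was left out in turn, the number called ranged from 0 to 1 in NK KO, from 0 to 2 in both NK mutants, from 0 to 1 between cell types in KE, and was 1 between cell types in KO without NK KO 1, NK KO 2, CD8 KO 1 or CD8 KO 2. Only 3 of the 10 most similar genes kept their place without the 2 libraries farthest from the median, and 3 with Spearman's rho.

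The replicate numbers did not pair the samples: the replicate differences of 2 groups correlated with r between -0.025 and 0.038, and 0 of 15 pairs exceeded 0.1. With a replicate block, 0 of the 5 genes were called in both NK mutants against WT (Plac8, log2 fold change -2.34, FDR 0.0735), and no other call among them changed. Over all genes the block left 1 DEG there, 3 in CD8 KO and 4 in CD8 KE.

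With macrophage markers as a covariate, chosen after seeing the data, 0 of the 5 genes were called in both NK mutants or between cell types in WT. Ly6a turned to 1.07 in NK KO, 2.502 in NK KE, 1.79 in both and -1.43 in NK KO against KE, and Ly6c1 to 3.81 in NK KE and -0.12 in NK KO against KE. The cause was not tested. Ly6e between the cell types in WT turned to 0.0036 with RLE size factors and 0.050 with library totals.

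Leaving out 1 library at a time changed the sign of several values, and the ranges over these fits follow. A group left with 1 library was assumed to vary like the other groups. Ly6c1, whose counts are low, ranged from -2.03 (without NK KO 1) to 4.78 (NK WT 2) in NK KO, from -4.20 (NK KE 1) to 2.96 (NK WT 2) in NK KE, where it was 0.80 without NK KE 2, and from -1.27 (NK KE 1) to 3.87 (NK WT 2) in both mutants, where it was -0.16 without NK WT 1 and -1.10 without NK KO 1. In NK KO against KE it ranged from -1.87 (NK KO 1) to 5.88 (NK KE 1), and between the cell types in KE from -3.35 (NK KE 1) to 1.66 (NK KE 2). In NK KO against KE, Ly6a ranged from -3.82 (NK KO 1) to 1.89 (NK KE 2), Ly6e from -0.36 (NK KO 1) to 0.022 (NK KO 2) and Plac8 from -0.29 (NK KO 2) to 0.57 (NK KO 1). Ly6e between the cell types in WT ranged from -0.062 (NK WT 2) to 0.038 (CD8 WT 2). Plac8 stayed below WT in NK KO, NK KE and both together under every alternative, as did Ly6c2.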
